A study of Mus musculus with 59 samples.

Results

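Thbs4, Krt83, Kcnk12 and Kcng1 are 4 of the 52060 mouse genes named in the gene-level expression tables of this study. They were chosen because they stood out in the libraries in which both Daxx and Pu.1 were deleted, or in which Pu.1 alone was deleted. Their values in those comparisons are the reason for their selection, so these values are given as a description, with no test. Tests are given for the cells in which Daxx alone was deleted and no time after induction is on the label, which did not enter the choice, and for other genes.

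RNA was sequenced from KLS cells (Lin-c-Kit+Sca-1+ stem and multipotent progenitor cells) and from granulocyte-monocyte progenitors (GMPs), sorted from bone marrow of C57BL/6 mice. Every animal used here, controls included, carried Cre +/-. The study asked what the H3.3 chaperone Daxx does in blood stem and progenitor cells, and its double deletion asked whether the effects of losing Daxx depend on the transcription factor Pu.1. Of the 59 samples, 36 had a column that could be tied to them and were analysed here.

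At 3 weeks after the end of induction (3 w.p.i.), each cell type had 3 libraries of Daxx F/F Cre +/- mice (Daxx-KO), 3 of Daxx +/+ Cre +/- mice (WT) and 2 of mice with both Daxx F/F and Pu.1 F/F as well as Cre +/- (double knockout, DKO). A further set, named the Pu.1 line here and labelled 3 w.p.i. too, had 2 libraries of Pu.1 F/F Cre +/- mice (Pu.1-KO) and 2 of Pu.1 +/+ Cre +/- mice in each cell type. An untimed set had 2 Daxx-KO and 2 WT libraries in each cell type, and its labels give neither the Cre line nor the time. The study also sequenced RNA of donor KLS cells and GMPs from lethally irradiated mice transplanted with Daxx-KO or WT bone marrow. All its other KLS and GMP RNA libraries were of mice at 3 or 24 w.p.i. By elimination the untimed set would be these transplanted cells, but its labels do not say so. At 24 w.p.i., 2 WT libraries in each cell type were used. The timed mice carried Mx1Cre, which is driven by an interferon-responsive promoter and induced by pI:pC, and which also recombines outside the blood. The floxed Daxx allele spans exons 2 to 7. Ages are not on the labels. At 3 w.p.i. the KLS and GMP libraries came from the same numbered animals, so that the 2 DKO libraries of KLS cells and the 2 of GMPs are the same 2 mice.

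The libraries held 3388906 to 29335964 reads in genes. Daxx transcripts did not fall to 0 in any Daxx-deleted group, but the Daxx-KO and DKO libraries lay below all of their WT libraries. Spi1, the gene of Pu.1, was not lower in the DKO libraries of KLS cells, at 2993 to 3330 normalized counts against 1669 to 2320 in WT. In the Pu.1 line Spi1 stood at 1307 to 2920 against 2080 to 2764 in KLS cells and at 2589 to 2707 against 3395 to 3934 in GMPs. The labels DKO and Pu.1-KO are therefore used as the genotype written on the sample, and the transcript level does not by itself show the deletion. Summed markers set the DKO libraries of KLS cells apart from the other KLS libraries of that time. The summed level of 8 GMP marker genes was 109304 to 112422 normalized counts there, against 4976 to 44569 in WT KLS cells and 99506 to 192677 in the DKO GMPs. The summed level of 11 KLS marker genes was 28414 to 37027 in the DKO libraries against 66179 to 94103 in WT. Whether this shift has a part in the differences below was not tested. In bulk RNA, fewer cells of a type and less RNA per cell cannot be told apart.

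**Figure D1:**
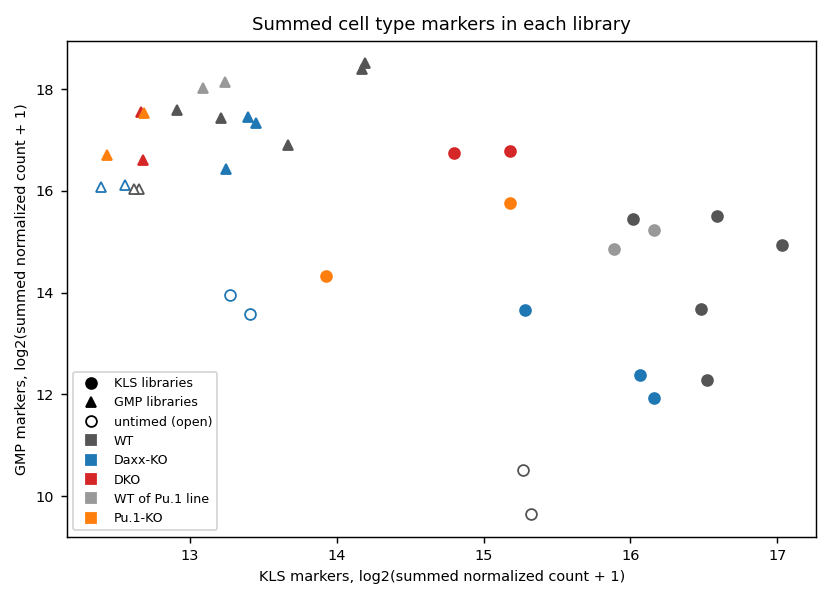
Each point is 1 library, with the summed normalized count of the KLS marker genes on the x axis and of the GMP marker genes on the y axis, coloured by genotype. The DKO libraries of KLS cells sit at 109304 to 112422 on the GMP axis, above all WT and Daxx-KO libraries of KLS cells.

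Pu.1 belongs to the ETS family of transcription factors, which recognise a short purine-rich motif with a GGAA core. It directs the myeloid and B-lymphoid branches of blood formation and acts both as an activator and as a repressor. The 4 genes share no textbook function. Thbs4 encodes thrombospondin-4, a secreted calcium-binding glycoprotein of the extracellular matrix best known from tendon, heart and muscle. Krt83 encodes a type II hair keratin of the hair cortex. Kcnk12 encodes THIK-2, a potassium channel subunit with tandem pore domains. Kcng1 encodes Kv6.1, an electrically silent subunit that forms channels only together with Kv2 subunits.

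All 4 genes lie on the minus strand (GRCm38, GENCODE M21), and none overlaps another annotated gene. Thbs4 (ENSMUSG00000021702.7) spans chr13:92751590-92794818, and Krt83 (ENSMUSG00000067613.6) spans chr15:101485130-101491512. Kcnk12 (ENSMUSG00000050138.8) spans chr17:87745801-87797994, and Kcng1 (ENSMUSG00000074575.4) spans chr2:168260117-168281736. The values are counts over whole genes. Krt83 has near-identical paralogs, and how reads shared between them were assigned is not given in the sources used here.

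The 250 bases before the start of the most strongly rising and the most strongly falling of the 4 genes in KLS cells are shown, 5′ to 3′ on the gene's own strand, because the deleted factor reads promoter sequence (RefSeq, GRCm38.p6). Capitals mark TTCCTC, the reverse complement of GAGGAA. This form was searched on both strands, as was the longer form GAGGAAGT, which contains it. Other GGAA cores, which both windows also hold on one strand or the other, are neither marked nor counted.
Thbs4, chr13:92794819-92795068, minus strand: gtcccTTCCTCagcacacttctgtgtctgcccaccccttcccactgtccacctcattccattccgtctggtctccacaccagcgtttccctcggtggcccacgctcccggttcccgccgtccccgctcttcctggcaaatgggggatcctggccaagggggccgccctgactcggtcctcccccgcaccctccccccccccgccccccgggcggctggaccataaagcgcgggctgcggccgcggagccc
Kcnk12, chr17:87797995-87798244, minus strand: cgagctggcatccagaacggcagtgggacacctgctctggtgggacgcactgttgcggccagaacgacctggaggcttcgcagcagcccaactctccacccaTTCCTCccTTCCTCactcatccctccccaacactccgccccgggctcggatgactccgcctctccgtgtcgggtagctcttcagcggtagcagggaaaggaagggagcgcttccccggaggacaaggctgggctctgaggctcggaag
The Thbs4 window held GAGGAA on either strand 1 time, 245 bases before the start, and the Kcnk12 window held it 2 times, 148 and 140 bases before the start. Of 32817 promoter windows of this length, 7631 (23.3%) held it. GAGGAAGT was in 801 windows (2.44%), and not in those of Thbs4 and Kcnk12. The GC content was 70.8% for Thbs4 and 64.8% for Kcnk12. A match here is a description of letters, not of binding.

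Thbs4 was nearly silent in WT and Daxx-KO cells and abundant in the libraries labelled DKO. In KLS cells at 3 w.p.i. the WT libraries held 1.08, 0 and 3.00 normalized counts of Thbs4. The Daxx-KO libraries held 2.26, 9.87 and 1.05 Thbs4 counts. The DKO libraries held 5922 and 3044 Thbs4 counts. The groups DKO and WT did not overlap, and neither did DKO and Daxx-KO. In GMPs of the same animals Thbs4 stood at 3.12, 6.18 and 2.18 in WT and at 5.86, 2.85 and 3.95 in Daxx-KO. The DKO GMPs held 2061 and 498 Thbs4 counts, which were unequal between the animals but above all other libraries. All 4 genes were separated between DKO and WT in KLS cells and in GMPs, where 49.7% and 18.6% of all tested genes were. Between DKO and Daxx-KO all 4 were separated too, beside 44.6% and 20.7% of all genes. Since the genes were picked for this contrast, nothing is read from that count.

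On the linear scale the mean Thbs4 level of the DKO libraries was 3295 times that of WT in KLS cells and 335 times in GMPs. On the log2(normalized count + 1) scale the differences from WT were 11.03 (SE 0.90) and 7.80 (SE 0.71), and from Daxx-KO 9.99 and 7.64. The contrasts with WT and with Daxx-KO share the DKO libraries and are not independent. The WT mean rests on 4 reads in KLS cells and 12 in GMPs, which limits the precision of these ratios.

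In the Pu.1 line, where Daxx was not floxed, Thbs4 was again high under the deleted label, but its controls were not silent. Libraries of this line detected 24539 to 30291 genes, against 18077 to 20424 in the DKO, Daxx-KO and WT libraries of 3 w.p.i. Read depth overlapped between these sets. Deleted KLS libraries of this line detected 29391 and 30291 genes, their controls 25662 and 27548. For GMPs the numbers were 26554 and 27760 against 24539 and 26134. The part of this wider detection in the levels of Thbs4 and of marker genes was not tested. Daxx transcripts stood at 295 to 478 against 625 to 920 in KLS cells of this line (-1.01, limma adjusted p = 0.23) and at 558 to 701 against 787 to 788 in GMPs (-0.33, limma adjusted p = 0.33), below both controls but not called. The Pu.1-KO libraries of KLS cells held 3568 and 1599 Thbs4 counts against 40.7 and 80.2 in their WT libraries. Those of GMPs held 3389 and 3884 Thbs4 counts against 30.7 and 27.4. The log2 differences were 5.36 (SE 0.58) and 6.92 (SE 0.28), with ratios of 42.8 and 125. In this set 65.6% of all tested genes in KLS cells and 65.0% in GMPs were separated between the groups, as happens often with 2 libraries against 2. In CPM (reads scaled to 1000000 per library), the Thbs4 levels of the 4 deleted groups were 302 to 326 in Pu.1-KO GMPs, 223 to 391 in DKO KLS cells, 145 to 234 in Pu.1-KO KLS cells and 38.9 to 164 in DKO GMPs. Each of these groups overlapped its neighbour in that order. The next groups were the WT libraries of the Pu.1 line, at 2.03 to 4.97 in KLS cells and 1.96 to 2.31 in GMPs. The tables were normalized separately, so this order across tables is one of read shares.

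**Figure D2:**
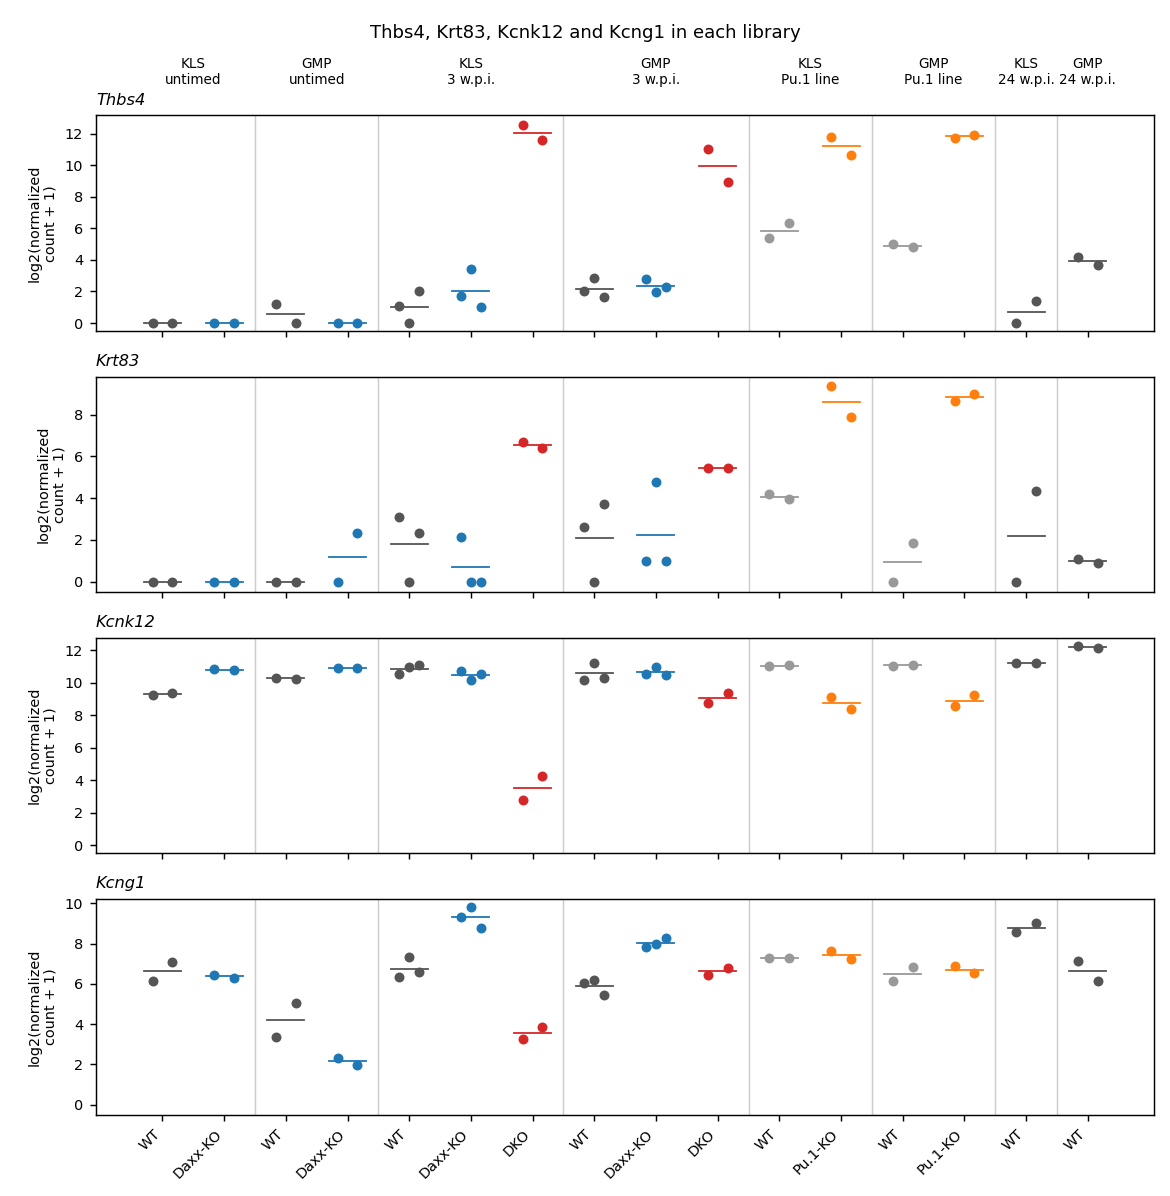
Each point is 1 library, with log2(normalized count + 1) on the y axis and the libraries grouped by cell type, set and genotype on the x axis, with a line at each group's mean and 1 panel for each gene. Thbs4 and Krt83 are high and Kcnk12 is low under the labels DKO and Pu.1-KO in both cell types, while Kcng1 is low in the DKO libraries of KLS cells and in the untimed Daxx-KO GMPs.

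After loss of Daxx alone, Thbs4 stayed near 0 in the untimed cells. All 4 untimed KLS libraries held 0 Thbs4 counts, and the untimed GMP libraries held 1.30 and 0 in WT and 0 in both Daxx-KO libraries. Thbs4 did not reach the mean of 10 normalized counts needed for a test there, and no fold is given. At 24 w.p.i. the WT libraries held 0 and 1.61 Thbs4 counts in KLS cells and 17.5 and 11.9 in GMPs.

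Markers of the tissues in which thrombospondin-4 is best known were low in the DKO KLS libraries, although their sum was above that of WT. The summed level of 9 mesenchymal and tendon genes was 332 to 470 in DKO KLS cells, against 113 to 148 in WT and 83.7 to 197 in Daxx-KO. In the DKO KLS libraries 5 of these 9 genes were detected, and most of the sum was Col1a2, a chain of type I collagen, at 199 to 422 against 73.0 to 122 in WT. The ranges of Col1a1, Cxcl12, Dcn and Lepr overlapped WT. Scx, Tnmd, Col3a1 and Lum were at 0 in DKO and at most 3.00 in WT. The same list stood at 56.2 to 166 in DKO GMPs against 29.4 to 53.0 in WT. It stood at 469 to 1196 against 468 to 515 in Pu.1-line KLS cells and at 205 to 316 against 88.8 to 185 in Pu.1-line GMPs, with Scx at 0 in all of them. In Pu.1-KO KLS cells Col3a1 was at 30.4 to 116 against 8.13 to 16.0, Lum at 10.5 to 19.2 against 2.71 to 4.22 and Lepr at 142 to 475 against 75.9 to 136, with no overlap. In Pu.1-KO GMPs Col1a1, Col3a1, Dcn and Tnmd lay above their WT libraries. Of all tested genes 65.6% in KLS cells and 65.0% in GMPs of this line were separated. Limma called 0 of the 7 tested genes of this list in these KLS cells and 1 of 6 in these GMPs. The summed level of 3 muscle genes was 0 to 3.83 in DKO KLS cells, 159 to 282 against 38.0 to 166 in Pu.1-line KLS cells and 59.9 to 120 against 24.8 to 70.9 in Pu.1-line GMPs. Of these, Myh4 was at 93.6 to 161 against 10.8 to 52.3 in Pu.1-line KLS cells, and limma called none of the 3 in this line. The summed level of 9 mature neutrophil genes moved with Thbs4 in 3 of the 4 settings. It was 138084 to 169716 in DKO KLS cells against 550 to 28423 in WT, 60283 to 125098 against 24078 to 43899 in Pu.1-line KLS cells, and 165900 to 168613 against 29469 to 36899 in Pu.1-line GMPs. In 3 w.p.i. GMPs the DKO range of 118024 to 171051 lay inside the WT range of 58240 to 308553. In Pu.1-KO KLS cells most of the sum was Ngp, at 33912 to 68897, which lay above WT, as did S100a8 and Camp. There Ltf was lower, at 878 to 5006 against 5164 to 10411, and S100a9, Lcn2, Retnlg, Cxcr2 and Mmp8 overlapped WT. Limma called 3 of the 9 higher in DKO KLS cells, 0 in Pu.1-line KLS cells and 8 in Pu.1-line GMPs, and none lower. Of all tested genes 17.6%, 0.810% and 17.6% were called there. The part of any of these cells in the Thbs4 level was not tested.

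Of the other thrombospondins, Thbs1 rose as well. Thbs1 encodes thrombospondin-1, which activates latent TGF-β and binds CD36 and CD47, and it was measurable in the WT libraries. In KLS cells at 3 w.p.i. Thbs1 stood at 23256 to 26141 in DKO, 353 to 902 in Daxx-KO and 192 to 882 in WT. It was higher in DKO than in WT by 5.74 on the log2 scale (SE 0.56, limma adjusted p = 3.8e-04) and than in Daxx-KO by 5.38 (limma adjusted p = 3.9e-04). In this contrast with WT 17.6% of the 15200 tested genes passed the same threshold, and 15.4% did so against Daxx-KO. In DKO GMPs Thbs1 stood at 6905 to 7839 against 59.1 to 334 in WT, a difference of 5.32 (SE 0.80, limma adjusted p = 0.037), where 0.292% of genes passed. That call was lost when any WT or DKO library was left out and when the 2 groups were fitted alone. Against Daxx-KO GMPs, with 64.5 to 323, the difference was 5.35 and missed the threshold (limma adjusted p = 0.052), where 0.0583% of genes passed. The Daxx-KO and WT libraries overlapped for Thbs1 in both cell types at 3 w.p.i.

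**Figure D3:**
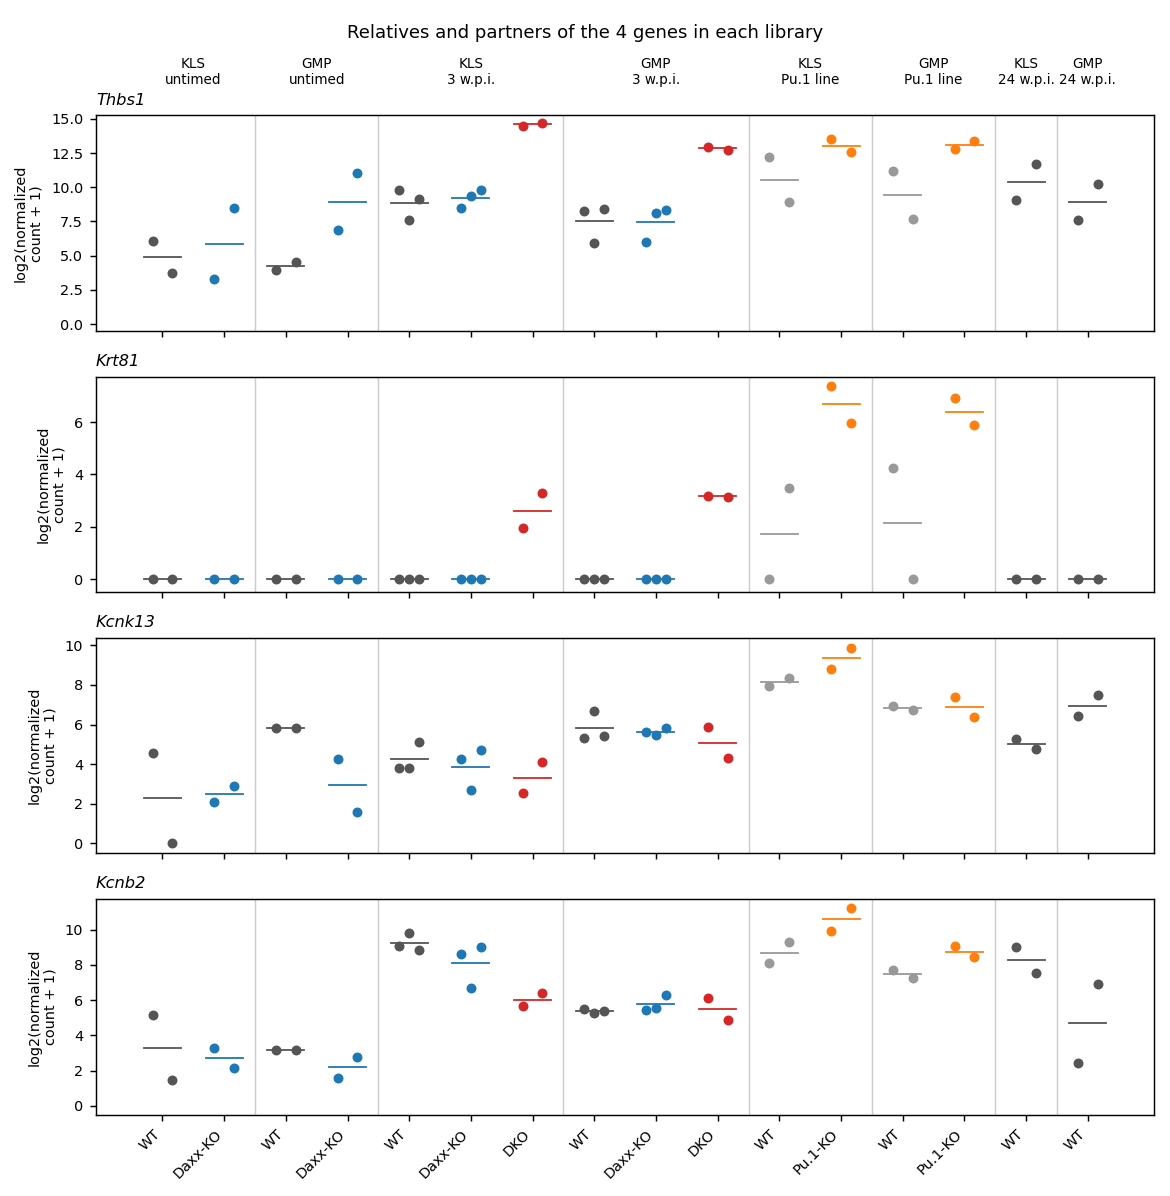
Each point is 1 library, with log2(normalized count + 1) on the y axis and the same grouping as for the 4 genes, for a relative of each of them: Thbs1, Krt81, Kcnk13 and Kcnb2. Thbs1 rises in the DKO libraries of both cell types from WT libraries that already hold 59.1 to 882 counts, while Kcnk13 is not separated in any comparison among DKO, Daxx-KO and WT at 3 w.p.i.

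Thbs1 was higher in the Pu.1 line too, and its controls were unequal. In GMPs it stood at 6995 to 10885 against 201 to 2365, a difference of 3.66 (SE 0.24, limma adjusted p = 1.6e-49), where 17.6% of genes passed. In KLS cells it stood at 5989 to 11627 against 486 to 4622, a difference of 2.48 (SE 0.69, limma adjusted p = 0.047), where 0.810% passed. In both of these fits the variance prior had infinite degrees of freedom, so that a gene's own spread did not enter its p. With a prior robust to outlying genes, an alternative chosen after seeing the data, the GMP call was lost (limma adjusted p = 0.33, SE 1.80) and the KLS call was kept (limma adjusted p = 0.045). Over all alternatives with a test the KLS call was also lost under edgeR and DESeq2, without either WT library, and the GMP call was also lost under DESeq2 and without WT b. In untimed GMPs, which did not enter the choice of genes, Thbs1 stood at 116 to 2095 in Daxx-KO against 14.3 to 22.6 in WT (4.70, SE 1.02, limma adjusted p = 0.0070), where 33.0% of genes passed, and it lost its call without the WT 1 library. In untimed KLS cells the Daxx-KO range of 8.75 to 353 overlapped the WT range of 12.1 to 65.4 (1.00, SE 1.43, limma adjusted p = 0.67).

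The list of thrombospondins other than Thbs4 held 4 genes, of which 3 were tested in 3 w.p.i. KLS cells and 1 was called, Thbs1. Their median difference between DKO and WT was 1.84 beside a median of -0.00031 over all tested genes. Of 8 receptors and partners of thrombospondins, all tested there, 2 were higher and 1 lower. Of all tested genes 9.24% were called higher and 8.40% lower. Cd47 was at 14178 to 15723 against 8030 to 8669 (0.84, limma adjusted p = 0.0035), and Itgb2, the common chain of leukocyte integrins, was higher by 2.24 (limma adjusted p = 0.0097), a call lost without the DKO 1 library. Itgam, the integrin chain CD11b, was lower at 96.8 to 176 against 720 to 2592 (-3.35, limma adjusted p = 0.0015). In 3 w.p.i. GMPs none of the 8 was called by limma between DKO and WT, with 1 at an unadjusted p under 0.05 and none called by edgeR or DESeq2. Limma called 0.292% of all tested genes there. In the untimed cells 23.1% of tested genes were called in KLS cells and 33.0% in GMPs. There 1 of 8 was higher and 4 lower in KLS cells, with a median of -1.40 beside 0.032 over all genes. In untimed GMPs 1 of 7 was higher and 4 lower, with a median of -1.86 beside -0.014. The platelet integrin chain Itgb3 fell by 4.70 in untimed KLS cells, from 325 to 339 counts down to 10.6 to 13.1, and by 2.66 in untimed GMPs. Itga2b fell by 2.25 and 1.90 in the same cells, the GMP call being lost without either WT library. In Pu.1-line GMPs, where 17.6% of all tested genes were called, Itgb2 and Itgb3 were higher by 1.40 and 0.84. Each of these 2 calls was lost without either WT library.

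Krt83 followed Thbs4 in direction and stood far below it in level. In KLS cells at 3 w.p.i. the Krt83 counts were 7.57, 0 and 4.0 in WT, 3.39, 0 and 0 in Daxx-KO, and 102 and 84.8 in DKO. In GMPs they were 5.19, 0 and 12.0 in WT, 0.977, 26.6 and 0.988 in Daxx-KO and 42.6 and 42.4 in DKO. The DKO libraries were above every other library in both cell types, and 1 Daxx-KO GMP library came nearest to them. The log2 differences from WT were 4.74 (SE 1.24) in KLS cells and 3.33 (SE 1.37) in GMPs, or ratios of 24.2 and 7.43. Against Daxx-KO KLS cells the ratio of 91.8 rests on 3 reads, and its 95% counting interval runs from 30.9 to 449.

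Krt83 was higher under the Pu.1-KO label than under the DKO label. The Pu.1-KO libraries held 651 and 236 Krt83 counts in KLS cells against 17.6 and 14.3 in WT, and 401 and 509 in GMPs against 0 and 2.61. The log2 differences were 4.54 (SE 0.73) and 7.90 (SE 0.67), and the ratio of 387 in GMPs rests on 2 WT reads, with a counting interval of 107 to 3197. In CPM, across tables that were normalized separately, Krt83 stood at 38.6 to 39.5 in Pu.1-KO GMPs and 21.3 to 42.7 in Pu.1-KO KLS cells, which overlap. It stood at 6.22 to 6.70 in DKO KLS cells and 3.31 to 3.39 in DKO GMPs, which overlap neither each other nor the Pu.1-KO groups. All 4 untimed KLS libraries were at 0 for Krt83, as were both WT libraries of untimed GMPs, while the Daxx-KO libraries of untimed GMPs held 0 and 4.08. These 10 reads in 1 library put the group's mean at least 2.12-fold above a floor of 3 reads over the WT group, with the groups overlapping. At 24 w.p.i. the WT libraries held 0 and 19.3 Krt83 counts in KLS cells and 1.09 and 0.851 in GMPs.

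The near-identical relative Krt81 was seen in the same libraries at lower counts. At 3 w.p.i. Krt81 stood at 2.87 to 8.67 in DKO KLS cells and at 7.89 to 8.12 in DKO GMPs, and at 0 in every WT and Daxx-KO library, too low to be tested. In the Pu.1 line Krt81 stood at 62.1 to 164 against 0 to 10.1 in KLS cells (4.93, SE 1.21). In GMPs of that line it stood at 57.4 to 121 against 0 to 18.0 (4.27, SE 0.82). Its WT means were 5.06 and 8.99, so that Krt81 passed the filter there only through its Pu.1-KO libraries. These 2 differences are therefore a description with no test. Krt86, another close relative, was at 50.3 to 62.1 against 6.78 to 38.8 in Pu.1-line KLS cells and missed the threshold (1.69, limma adjusted p = 0.24). Apart from Krt81, none of the 5 type II hair keratins that passed the filter was called in either cell type of the Pu.1 line. The partners with which type II hair keratins pair, the 7 type I hair keratins, gave no call by limma, edgeR or DESeq2 and none at an unadjusted p under 0.05, with 3 tested in KLS cells and 1 in GMPs of the Pu.1 line and none tested at 3 w.p.i. Reads shared between Krt83, Krt81 and Krt86 may have been split in counting, which was not tested.

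Keratins outside the hair groups went the other way in the DKO libraries of KLS cells. Of 7 other keratins 3 were tested there, and all 3 were lower than in WT, with a median of -1.51 beside -0.00031 over all genes. Of all tested genes 8.40% were called lower. Krt7 fell by 3.84 on the log2 scale, from 72.0 to 184 counts in WT down to 5.75 to 8.67 in DKO (limma adjusted p = 0.0015). Krt18 fell by 1.17 (limma adjusted p = 0.0035) and Krt80 by 1.51 (limma adjusted p = 0.031), and the Krt80 call was lost without any single WT or DKO library. In untimed GMPs, where 33.0% of all tested genes were called, all 3 tested keratins of this list rose in Daxx-KO. Krt7 was higher by 2.27 (limma adjusted p = 0.017), Krt80 by 1.72 and Krt18 by 1.55. Each of these calls was lost without at least 1 WT library. The list of 4 keratinocyte genes stood at 7.66 to 7.71 in DKO KLS cells and 4.32 to 15.9 in WT, with Krt5, Krt14 and Dsg3 at 0 in DKO. The sum of that list was higher with Krt83 in the Pu.1 line, at 122 to 353 against 58.3 to 93.7 in KLS cells and 69.4 to 113 against 31.3 to 33.9 in GMPs. In KLS cells only Dsg3, a cadherin of desmosomes, was separated, at 62.0 to 266 against 6.78 to 22.8, while Krt5, Krt10 and Krt14 overlapped. In GMPs Dsg3 (40.2 to 47.0 against 7.83 to 16.9), Krt14 and Krt5 were separated and Krt10 overlapped. Of all tested genes 65.6% in these KLS cells and 65.0% in these GMPs were separated. Limma called 1 of 4 tested genes of this list in the KLS cells and 0 of 3 in the GMPs. The part of this list in the Krt83 level was not tested.

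Kcnk12 was the opposite case, abundant in all controls and low in the deleted libraries. In KLS cells at 3 w.p.i. the Kcnk12 counts were 1456, 2005 and 2191 in WT and 1681, 1137 and 1467 in Daxx-KO. In DKO they were 5.75 and 18.3, far outside both other groups. In GMPs the counts were 1158, 2377 and 1255 in WT, 1493, 1997 and 1399 in Daxx-KO and 432 and 655 in DKO. The DKO GMP libraries lay below all others, but their Kcnk12 remained well above that of the KLS cells of the same animals. The WT mean was 157 times the DKO mean in KLS cells and 2.94 times in GMPs, with log2 differences of -7.35 (SE 0.39) and -1.50 (SE 0.33). The differences from Daxx-KO were -6.95 and -1.60. Between Daxx-KO and WT the Kcnk12 libraries overlapped in both cell types, with differences of -0.40 (SE 0.35) and 0.09 (SE 0.29).

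Kcnk12 was low in the Pu.1 line under the deleted label in both cell types, but not near 0. It stood at 546 and 328 against 2070 and 2125 in KLS cells and at 377 and 590 against 2108 and 2191 in GMPs. The differences were -2.31 (SE 0.58) and -2.19 (SE 0.24), with WT means 4.80 and 4.44 times the Pu.1-KO means. In CPM the lowest Kcnk12 group was DKO KLS cells, at 0.379 to 1.34, followed by Pu.1-KO KLS cells at 29.7 to 35.8, Pu.1-KO GMPs at 36.3 to 45.8 and DKO GMPs at 34.4 to 51.2. The DKO KLS cells did not overlap the next group, and among the 3 others only the KLS group and the GMP group of the Pu.1 line were apart. Kcnk12 and the KLS markers were both low in the DKO KLS libraries, and in the Pu.1-KO KLS libraries the KLS marker sum was 15548 to 37061 against 60552 to 73138. The KLS markers' part in the Kcnk12 level was not tested. In WT cells at 3 w.p.i. Kcnk12 stood at 87.3 to 197 CPM in GMPs, where the KLS marker sum was 7693 to 13012, and at 110 to 165 in KLS cells.

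**Figure D4:**
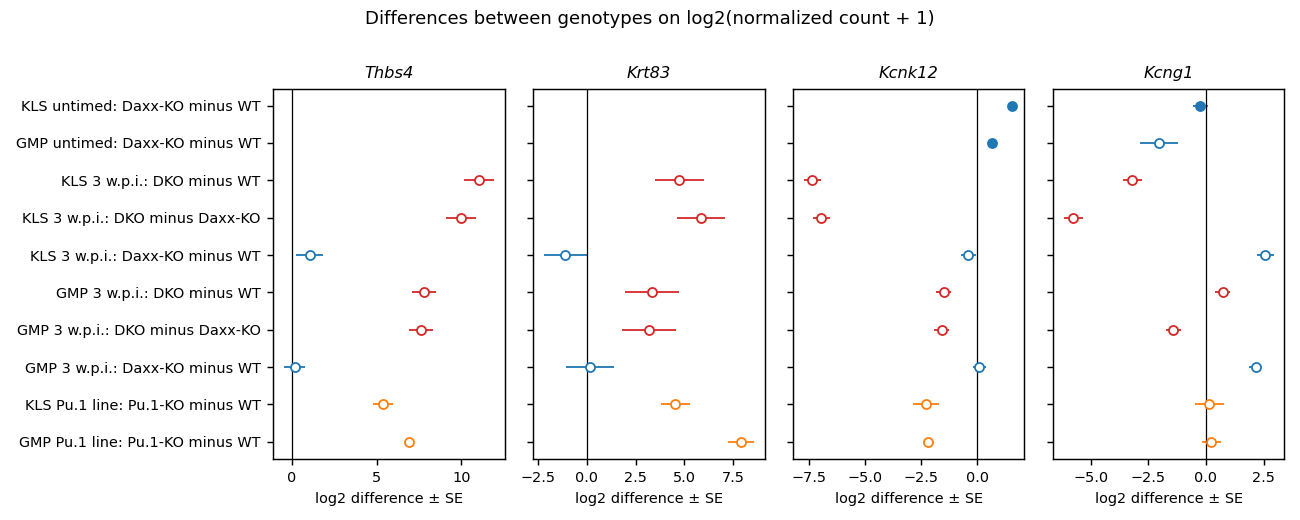
The x axis gives the log2 difference in (normalized count + 1) with its SE as a bar, for each of the 4 genes in each comparison, with filled points for tested values and open points for values given as a description. Thbs4 and Krt83 lie to the right and Kcnk12 to the left wherever Pu.1 was floxed, Kcng1 changes side between cell types, and the filled Kcnk12 points of the untimed cells lie at 1.52 and 0.63.

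The untimed cells, which did not enter the choice of genes, gave the test of Kcnk12 after loss of Daxx alone. In untimed KLS cells Kcnk12 stood at 1817 and 1752 in Daxx-KO against 592 and 653 in WT. It was higher by 1.52 on the log2 scale (SE 0.11, limma adjusted p = 3.1e-05), a ratio of 2.87, and between 1.45 and 1.59 with any library left out. In this comparison 23.1% of the 13508 tested genes were called, so that a call by itself is common. In untimed GMPs Kcnk12 stood at 1926 and 1876 against 1259 and 1195, higher by 0.63 (SE 0.09, limma adjusted p = 7.1e-04), a ratio of 1.55, and between 0.59 and 0.67 with any library left out. At 3 w.p.i. the same comparison gave overlapping groups, and the difference between the sets was not tested. If the untimed cells came from transplanted mice, transplantation differs between the sets as well. The depth of the untimed libraries was uneven, from 3857858 to 22647397 reads in KLS cells and 3388906 to 17307510 in GMPs. The untimed Daxx-KO KLS libraries also held more GMP marker RNA, at 12216 to 15796 against 803 to 1455, and less KLS marker RNA, at 9900 to 10863 against 39427 to 40948. The part of these shifts in the Kcnk12 level was not tested. At 24 w.p.i. the WT libraries held 2393 and 2339 Kcnk12 counts in KLS cells and 4938 and 4370 in GMPs.

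Kcnk13, which encodes THIK-1, the closest relative of THIK-2, was not called in KLS cells or GMPs at 3 w.p.i. or in the Pu.1 line. At 3 w.p.i. Kcnk13 stood at 4.79 to 16.4 in DKO KLS cells and 13.0 to 34.0 in WT (-0.93, SE 0.89, limma adjusted p = 0.51), counts too low for a firm statement. In Pu.1-line KLS cells it was at 453 to 943 against 245 to 327 (1.20, SE 0.58, limma adjusted p = 0.17). In untimed GMPs it was lower in Daxx-KO, at 2.04 to 18.2 against 55.9 to 56.0 (-2.90, limma adjusted p = 0.020), a call lost without either WT library. Of 13 other tandem-pore channels 7 were tested in 3 w.p.i. KLS cells and 1 was called, the acid-sensitive channel Kcnk3, lower in DKO than in WT by 2.48 (limma adjusted p = 0.015) and lost without WT 1 or DKO 1. Of all tested genes 17.6% were called in that comparison. In untimed KLS cells, where 23.1% of all tested genes were called, 3 were tested. Kcnk5 was lower, at 50.3 to 62.3 against 332 to 449 (-2.76, limma adjusted p = 6.8e-05). Kcnk6 was higher by 1.82 and Kcnk10 lower by 2.13, and these 2 calls were lost under DESeq2 and without either Daxx-KO library. In Pu.1-line GMPs, where 17.6% of all tested genes were called, 11 were tested. Kcnk2 and Kcnk9 were higher by 1.36 and 2.05 and Kcnk6 lower by 0.99, and each of the 3 calls was lost without the WT b library.

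Kcng1 differed from the other 3 genes in its pattern. At 3 w.p.i. it was below WT in the DKO libraries of KLS cells but not in those of GMPs, and it was above WT in the Daxx-KO libraries of both cell types. In KLS cells the Kcng1 counts were 80.0, 158 and 95.0 in WT, 649, 905 and 439 in Daxx-KO and 8.62 and 13.5 in DKO, with no overlap among the 3 groups. In GMPs they were 65.4, 73.3 and 42.4 in WT, 229, 256 and 312 in Daxx-KO and 86.2 and 110 in DKO. There the DKO libraries lay above all WT and below all Daxx-KO libraries. The differences between DKO and WT were -3.18 (SE 0.41) in KLS cells and 0.72 (SE 0.33) in GMPs. The differences between Daxx-KO and WT were 2.57 (SE 0.37) and 2.14 (SE 0.29), or ratios of 5.99 and 4.40. The 18.2% and 8.10% of all tested genes whose Daxx-KO and WT libraries did not overlap are the background of that pattern, which the choice of genes had in view.

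The Kcng1 groups overlapped in the Pu.1 line. It stood at 200 and 148 against 157 and 157 in KLS cells (0.13, SE 0.63) and at 116 and 92.5 against 68.8 and 112 in GMPs (0.24, SE 0.40). In the untimed cells Kcng1 was not higher in Daxx-KO. In untimed KLS cells Kcng1 stood at 85.3 and 78.2 in Daxx-KO against 70.5 and 134 in WT (-0.25, SE 0.33, limma adjusted p = 0.64). In untimed GMPs it stood at 4.06 and 2.86 against 9.11 and 31.6 (-2.04), on 9 and 42 reads, with no overlap, as for 67.2% of all tested genes there. Kcng1 passed the filter on low values there only through its WT libraries, so this difference is a description with no test. At 24 w.p.i. WT KLS cells held 379 and 524 Kcng1 counts and WT GMPs 138 and 70.6. In CPM Kcng1 was highest in the 3 w.p.i. KLS cells of Daxx-KO mice, with 34.4 to 65.8, and next in Daxx-KO GMPs, with 18.2 to 26.8, which overlapped the 15.8 to 22.2 of WT KLS cells at 24 w.p.i.

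Kcnb2, one of the Kv2 subunits with which Kv6.1 assembles, was lower in DKO KLS cells too. It stood at 48.9 to 82.9 in DKO, 101 to 509 in Daxx-KO and 461 to 898 in WT. It was lower than in WT by 3.22 (SE 0.61, limma adjusted p = 0.0074), a call lost without DKO 1, and than in Daxx-KO by 2.09 (limma adjusted p = 0.045), a call lost without any library of these groups but Daxx-KO 2. In Pu.1-line GMPs Kcnb2 was higher by 1.25 (limma adjusted p = 6.3e-04), a call lost without either WT library. Of 9 other silent subunits 2 were tested in 3 w.p.i. KLS cells and none was called by limma, edgeR or DESeq2, with 1 at an unadjusted p under 0.05, while Kcng2 was lower in untimed Daxx-KO GMPs by 1.46 (limma adjusted p = 0.048), a call lost in several alternatives. Of 7 other potassium channel genes of blood cells 5 were tested in KLS cells at 3 w.p.i., where 17.6% of all tested genes were called between DKO and WT. Kcnab2, an auxiliary subunit, was higher in DKO at 4287 to 5725 against 1769 to 2415 (1.32, limma adjusted p = 0.0016). The calcium-activated channel Kcnn4 was lower by 0.50 (limma adjusted p = 0.048), a call lost under edgeR and without either DKO library, WT 1 or WT 2.

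Per kilobase of exon sequence, the 4 genes can be set beside each other. In DKO KLS cells Thbs4 had 93.3 CPM per kilobase, Krt83 3.51, Kcnk12 0.436 and Kcng1 0.173. In DKO GMPs the levels were 30.8 for Thbs4, 21.7 for Kcnk12, 1.82 for Krt83 and 1.72 for Kcng1. In Pu.1-KO KLS cells Thbs4 had 57.6, Krt83 17.4 and Kcnk12 16.6, and in Pu.1-KO GMPs the levels were 95.5, 21.2 and 20.8. In DKO KLS cells Thbs4 therefore stood at the level that Kcnk12 had in the WT groups, which was 47.0 to 104. Kcng1 reached 11.1 in the 3 w.p.i. Daxx-KO KLS cells, against 1.86 in WT.

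Genes regarded in textbooks as direct or indirect targets of Pu.1 did not move in a common direction in the DKO KLS cells. Of 27 such genes 26 were tested in 3 w.p.i. KLS cells, and 4 were higher and 5 lower in DKO than in WT, with a median of 0.03 beside -0.00031 over all genes. Of all tested genes 9.24% were called higher and 8.40% lower there. Higher were Elane, the neutrophil elastase gene, at 44193 to 49324 against 849 to 12857 (4.13, limma adjusted p = 0.015), and Gfi1, at 2207 to 2979 against 226 to 576 (2.83, limma adjusted p = 9.4e-04). The study describes Gfi1 as driving neutrophil differentiation together with Spi1. Lower were Itgam and Btk, the B-lineage tyrosine kinase, at 126 to 214 against 1114 to 1396 (-2.96, limma adjusted p = 1.8e-04). The Elane call was lost under edgeR and without WT 2 or either DKO library, and Elane is one of the GMP markers that set these libraries apart. Against Daxx-KO 7 were higher and 6 lower, with a median of -0.59 beside -0.014, where 15.4% of all tested genes were called. The receptor tyrosine kinase Flt3 stood at 381 to 670 against 5664 to 7765 (-3.68, limma adjusted p = 8.9e-05). In 3 w.p.i. GMPs none of the 26 tested was called by limma or edgeR between DKO and WT, with 4 at an unadjusted p under 0.05 and 1 called by DESeq2. Limma called 0.292% of all tested genes there. In the Pu.1 line none of 27 was called by limma, edgeR or DESeq2 in KLS cells, with 9 at an unadjusted p under 0.05 and a median of -0.72 beside 0.12, while in GMPs 7 were higher and 5 lower, with a median of -0.23 beside -0.0023. Limma called 0.810% of all tested genes in these KLS cells and 17.6% in these GMPs. The largest rises in GMPs were of Igll1 (4.51) and Il7r (2.81), genes of the B lineage, where the sum of 8 B-lineage markers, Igll1 among them, was 2853 to 4884 against 1373 to 1443, and its part was not tested. In the untimed cells 13 of 24 were higher and 4 lower in Daxx-KO KLS cells, with a median of 0.63 beside 0.032, where 23.1% of all tested genes were called. In untimed GMPs 12 of 23 were higher and 7 lower, with a median of 0.45 beside -0.014, where 33.0% were called. Spi1 itself was higher there by 1.42 in KLS cells (limma adjusted p = 6.6e-05) and by 0.86 in GMPs (limma adjusted p = 1.6e-04).

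The nearest tested neighbours of the 4 genes on their chromosomes mostly did not move with them. For each gene the 3 nearest tested genes on each side were taken, 24 in all. In KLS cells at 3 w.p.i. none of the 24 was called higher by limma and 3 were lower in DKO than in WT. In this comparison 9.24% of all tested genes were higher and 8.40% lower. The 3 lower genes were keratin genes, against Krt83's own rise, with Krt7 54817, Krt80 114968 and Krt18 536668 bases from Krt83. Nearer to it lie Krt86 and Krt81, 5144 and 21379 bases away, which were too low to be tested there. Krt81 was at 2.87 to 8.67 in DKO and at 0 in every WT and Daxx-KO library. Between DKO and WT KLS cells the 6 neighbours of Kcnk12 gave no call by limma or edgeR, with 3 at an unadjusted p under 0.05 and 1 called by DESeq2. The 6 of Kcng1 gave none by any of the 3 tools, with 1 at an unadjusted p under 0.05. Against Daxx-KO 6 of the 24 were lower and 0 higher, where 1098 of all 15200 tested genes were lower. Of the 6, 5 were around Krt83. The other was Cmya5 near Thbs4, at 83.4 to 106 against 299 to 513 (-2.15, limma adjusted p = 0.0016). In the Pu.1 line no neighbour was called in KLS cells apart from Krt81, which is given above as a description. In GMPs 4 neighbours were higher. They were Krt81, again a description, and Pard6b, Nfatc2 and Atp9a, all 3 near Kcng1, each of whose calls was lost without the WT b library. Of all tested genes 0.810% were called in KLS cells and 17.6% in GMPs. In untimed GMPs, where 33.0% of all tested genes were called, 6 of the 24 neighbours were higher and 1 lower, with Epcam, near Kcnk12, at 28.2 to 30.4 against 0 in both WT libraries. In untimed KLS cells, where 23.1% were called, 4 were higher and 3 lower.

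The genes most like each of the 4 were sought over all 36 libraries, by the root-mean-square (RMS) difference of log2(normalized count + 1) after each gene was centred within its table, among 24190 genes. This is a description, since the same libraries chose the 4 genes. The gene nearest to Thbs4 was Mybpc3, with an RMS difference of 1.05, where Thbs4 itself varied by 3.10. Mybpc3 encodes cardiac myosin-binding protein C, and it is the gene directly after Spi1 on chromosome 2. It starts 2387 bases beyond the end of Spi1 on the same strand (chr2:91118144-91136516, GRCm38), with no annotated gene between them. Mybpc3 stood at 3333 to 6428 in DKO KLS cells against 14 to 49.0 in WT, and at 996 to 4579 against 20.8 to 26.5 in GMPs. It stood at 2292 to 4894 against 91.1 to 108 in KLS cells and at 2317 to 2945 against 41.8 to 72.0 in GMPs of the Pu.1 line. The next genes after Mybpc3 were clearly less like Thbs4, with RMS differences of 1.77 for H2-Q10, 1.84 for Clu, 1.86 for Lipg and 1.88 for Lamc3. Krt83 was the gene ranked 7 for Thbs4 (1.91).

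Krt83 was most like Ceacam10 (1.37), Mybpc3 (1.39), Tinagl1 (1.40), Ptgdr (1.42) and Dsp (1.45), beside an own variation of 2.26. Ceacam10 stood at 37.4 to 79.0 in DKO KLS cells and at 0 in all 3 WT libraries. For Kcnk12, which varied by 1.64, the nearest were the predicted gene Gm10384 (0.77), Cd300a (0.84), Nfam1 (0.87), Gm46224 (0.90) and Fgd2 (0.92). Cd300a, an inhibitory receptor of myeloid cells, stood at 12.5 to 20.2 in DKO KLS cells against 297 to 339 in WT, and at 207 to 397 against 420 to 535 in GMPs. Nfam1, an activating receptor with an ITAM, stood at 53.7 to 61.7 against 879 to 1738 in KLS cells and at 2011 to 2087 against 2592 to 3792 in GMPs. In these genes, as in Kcnk12, the gap between DKO and WT was wider in KLS cells than in GMPs. For Kcng1, which varied by 1.25, the nearest were Ephb2 (0.59), Drc7 (0.66), Cnn3 (0.69), Rgl1 (0.74) and Rgsl1 (0.76). The ephrin receptor gene Ephb2 stood at 847 to 1281 in Daxx-KO KLS cells, 249 to 459 in WT and 36.6 to 59.4 in DKO. Cnn3, an actin-binding calponin, stood at 434 to 1320, 65.9 to 162 and 10.6 to 32.6 in the same groups, so that all 3 genes were in the order Daxx-KO, WT, DKO in KLS cells. Among the 4 genes themselves, Kcng1 was ranked 160 in likeness to Kcnk12 but Kcnk12 was ranked 6648 in likeness to Kcng1 (1.29, above the own variation of Kcng1), and Thbs4 was ranked 329 in likeness to Krt83.

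**Figure D5:**
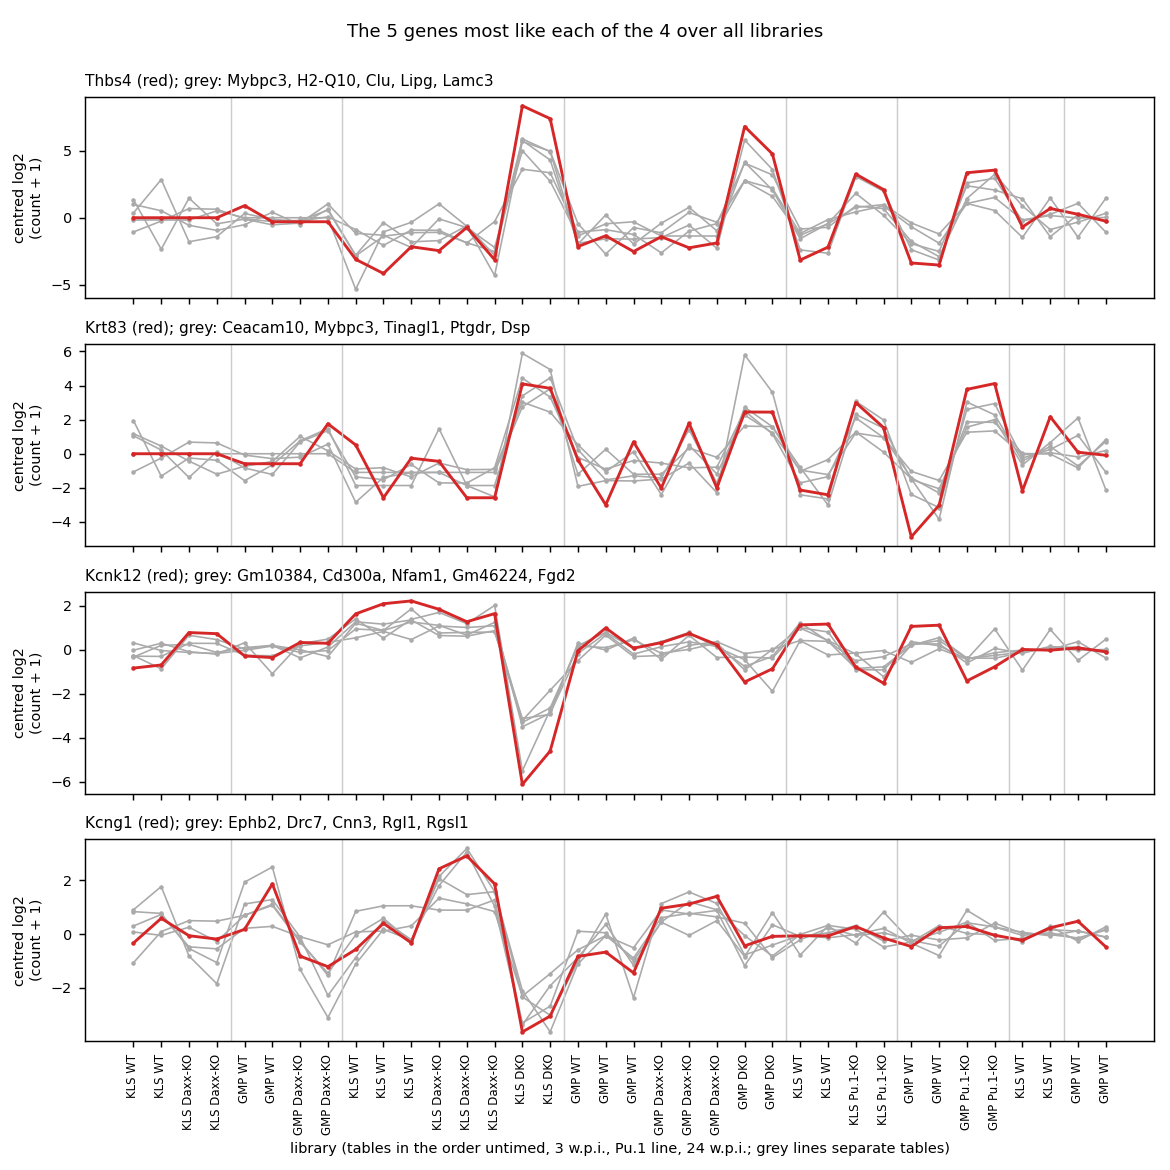
For each of the 4 genes the centred log2(normalized count + 1) is drawn on the y axis over the 36 libraries on the x axis, in colour, with its 5 most similar genes in grey. The grey lines rise and fall in the same libraries as the coloured line, and Mybpc3 follows Thbs4 with an RMS difference of 1.05.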

How the data were processed

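Bulk RNA-seq of sorted KLS cells and GMPs was analysed from 8 gene-level tables. Per the labels' processing notes, the authors' tools included CASAVA 1.8.4, cutadapt 1.13, STAR 2.5.3 and DESeq2 1.16.1 with mm10, and the study names GENCODE M14 as the annotation. The deposited values are normalized counts, a signal in which reads are divided by a size factor per library, separately in each table. In every library 100% of values were whole multiples of 1 read (within 0.01), which gave back the read counts. Coordinates given here are from GENCODE M21 of the same build. The counter, its handling of strand and multi-mapping reads are not given in the sources used here. Labels give the Ovation SoLo kit for all samples, while the study's methods give another kit for steady-state cells.

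These tables hold 44 columns, of which 36 were used, for 36 of 59 samples, and 8 of 24 w.p.i. were not. Of 111 columns in everything deposited, 75 were not used, which include repeat-element tables of many of the same libraries and the multipotent progenitor and long-term stem cell tables. GMP columns of 3 w.p.i. were matched through the animal numbers in the KLS titles. The WT library u of 3 w.p.i., the 24 w.p.i. controls and the Pu.1-line columns were matched by group only, and the latter are named a and b.

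The main test was limma-trend (limma 3.58.1, R 4.3.3) on log2(normalized count + 1), over genes with a mean of at least 10 in the table, with all libraries of a table in 1 fit and no block. A gene was called at a Benjamini-Hochberg adjusted p under 0.05 over all tested genes. Fold changes on this scale understate low genes. edgeR 4.0.16 (quasi-likelihood) and DESeq2 1.42.0 on the recovered read counts, TMM rescaling, pseudocounts of 0.5 and 5, no filter, a fit of the 2 groups only, leaving out each library and a replicate block were the alternatives. The count test was not the main one because the deposited values were normalized. The fits were tested on simulated data with known changes. Nothing on the labels says that the untimed libraries are from separate animals, so p-values measure the spread between these libraries. Intervals are at 95%, and they and the floor of 3 reads cover counting error only.

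The 4 genes and all gene lists were chosen with earlier results of these data known. Named were the 4 genes, Daxx and Spi1, the relatives Thbs1, Krt81, Krt86 and Kcnk13, at most 4 called genes per list and comparison, the 3 flanking genes on each side when called, and the 5 genes nearest in pattern. Ceacam10, Cd300a, Nfam1, Ephb2 and Cnn3 were picked from those 5 to show values.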

Additional observations from a re-analysis of the deposited data

Results flagged for a closer look

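Kcng1 moved in opposite directions in the 2 cell types of the same DKO animals. At 3 w.p.i. its difference between DKO and WT was -3.18 in KLS cells, where both DKO libraries lay below all WT libraries, and 0.72 in GMPs, where both lay above all WT libraries. The difference between the cell types was not tested, and Kcng1 was among the genes picked for the KLS contrast.

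Kcng1 also went opposite ways between Daxx-KO and WT GMPs of the 2 sets. The difference was -2.04 in the untimed GMPs, on 9 reads against 42, and 2.14 at 3 w.p.i., with no overlap in either set. Kcng1 passed the filter in the untimed GMPs only through WT, so that neither value is a test. The difference between the sets was not tested, and set, library depth, preparation and any transplantation cannot be told apart.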

How the results depend on the processing

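For the 4 genes, 166 of 175 values with a library left out and 255 of 259 under other alternatives kept their direction and call or, for described differences, moved by less than 1 SD between libraries. With a pseudocount of 5 the described differences shrank for Thbs4 (9.41 for DKO against WT KLS cells, 6.74 in Pu.1-line GMPs) and Krt83 (4.04 for DKO against Daxx-KO KLS cells, 6.21 in Pu.1-line GMPs). With a library left out, Thbs4 in GMPs ran from 6.78 to 8.83 (DKO against WT) and 6.62 to 8.67 (against Daxx-KO), Kcnk12 in KLS cells from -8.10 to -6.59 and -7.71 to -6.19, and Kcng1 in untimed KLS cells from -0.71 to 0.21, reversed without WT 2. Krt83, whose SD is wide, ran from 3.84 to 5.39 (DKO against WT KLS cells), 2.28 to 4.13 (GMPs), 3.81 to 5.27 and 6.97 to 8.82 (Pu.1-line KLS cells and GMPs), and Kcng1 in untimed GMPs from -2.89 to -1.84. Where a group is left with 1 library, that library is assumed to vary like the others.

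Of the numbers of called genes, 57 of 73 under other alternatives stayed within 1.5 times. Untimed KLS cells gave 1751 without the filter (3118 in the main test). DKO against Daxx-KO gave 1267 with the replicate block in KLS cells (2340) and in GMPs 20 with edgeR, 266 with DESeq2, 18 with TMM, 17 with a pseudocount of 5, 13 without the filter and 0 with the 2 groups alone, where 981 passed unadjusted (8). Daxx-KO against WT gave 325 with DESeq2 and 66 with the block in KLS cells (39) and 67 with DESeq2 in GMPs (13). DKO against WT GMPs gave 261 with DESeq2 and 5 with the 2 groups alone (40). Pu.1-line KLS cells gave 1687 with edgeR, 846 with DESeq2 and 784 with TMM (190), and 171 with the robust prior. The split there was 110 higher and 80 lower, against 1493 and 194 with edgeR, 576 and 270 with DESeq2 and 585 and 199 with TMM, and the median of all genes moved from 0.12 to 0.55 with DESeq2. The cause was not tested. With a library left out the numbers ran from 419 to 3290 and 2162 to 4448 (untimed KLS cells and GMPs), 574 to 2975, 672 to 2481 and 8 to 137 (KLS cells: DKO against WT, DKO against Daxx-KO, Daxx-KO against WT), 2 to 90, 0 to 71 and 4 to 11 (the same in GMPs), and 13 to 6905 and 151 to 8163 (Pu.1-line KLS cells and GMPs).

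Of the other named genes, 221 of 770 values with a library left out and 74 of 1275 under other alternatives lost their call. Reversed with a library left out were Thbs1 (-1.59 to 3.59 in untimed KLS cells, and for Daxx-KO against WT -0.26 to 0.84 in KLS cells and -0.84 to 0.70 in GMPs), Kcnk13 (-1.35 to 0.24 and -0.79 to 0.23 in KLS cells for DKO against Daxx-KO and Daxx-KO against WT, -1.51 to 0.038, -1.34 to 0.21 and -0.41 to 0.27 in the 3 GMP comparisons, -0.43 to 0.56 in Pu.1-line GMPs) and Spi1 (-0.87 to 0.28 in Pu.1-line KLS cells), none of them called. Same-numbered libraries share only a number (correlation of deviations -0.0095 and -0.11 in the untimed sets, -0.21 to 0.13 at 3 w.p.i.), and with the replicate block no call of the 4 genes changed.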

Other observations

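The sums of other marker lists also set the DKO libraries of KLS cells apart at 3 w.p.i., though the lists did not move as a whole. The summed level of 4 endothelial genes was 7254 to 10312 normalized counts against 3191 to 4357 in WT, of 5 T and NK cell genes 2555 to 2880 against 245 to 561, and of 4 plasma cell genes 17231 to 18265 against 820 to 10896. Sums of 4 dendritic cell genes were lower, at 227 to 333 against 519 to 1447, as were those of 5 megakaryocyte genes, at 1196 to 1822 against 2369 to 3147. Limma called 1 endothelial gene higher and 1 lower. It called 1 T and NK cell gene and 2 plasma cell genes higher and none lower. None of 3 tested dendritic cell genes was called, and 1 of 4 tested megakaryocyte genes was lower. Of all tested genes 9.24% were higher and 8.40% lower. The part of these shifts in the levels of the 4 genes was not tested.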
